A study of Mus musculus with 5 samples.

Results

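The insulin-like growth factor (IGF) system was measured in CD31-positive cells of infarcted mouse hearts. It was taken as 10 genes chosen by symbol, 2 ligands, 2 receptors and 6 binding proteins. Of these, 9 had a row among the 17638 genes of the table, and all 9 passed the filter on low values (a mean normalised count of at least 10, passed by 14339 genes). The other, Igfbp2, was not analysed here. The 2 Tbx1cko libraries came from mice with a conditional knockout of the T-box transcription factor gene Tbx1, which the series' design text places in the endothelium. The 3 control libraries carried the genotype label control. Both groups were C57BL/6 mice of 2 months with myocardial infarction, and the cells were taken 5 days after it. The sources used here do not give the Cre line, the deleted exons, the alleles of the controls or the number of animals per library. The labels do not say that libraries came from separate animals, so a p-value reflects library-to-library spread alone, which may be technical.

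IGF1 and IGF2 are small secreted hormones related to insulin. Both signal through the IGF1 receptor, a tyrosine kinase that acts on cell survival, growth and metabolism by way of the insulin receptor substrates, PI3 kinase and AKT. The IGF2 receptor, which is also the cation-independent mannose 6-phosphate receptor, has no kinase and takes IGF2 to the lysosome. The binding proteins hold IGFs outside the cell, lengthen their life and limit or aid their access to the receptor, and proteases release the hormone from them. In the infarcted heart, macrophages and fibroblasts are known sources of IGF1.

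The libraries held 14689782 to 18617284 reads in genes. Tbx1 itself had 18.3 and 17.3 normalised reads in Tbx1cko replicates 1 and 2, against 64.4, 72.7 and 69.6 in control replicates 1 to 3, with no overlap and a log2 difference of -1.89 (SE 0.30, limma adjusted p = 0.762). Which exons these reads cover relative to the deletion cannot be seen in counts per gene. Endothelial markers were abundant. Pecam1, which encodes CD31, had 33715 to 38311 normalised reads in Tbx1cko and 37541 to 43313 in control libraries. Markers of other cells were present too, among them the macrophage gene Lyz2 at 47343 to 53428 in Tbx1cko and 29682 to 47618 in control libraries. Control replicate 2 stood apart. Its log2 values correlated with those of the other libraries at 0.859 to 0.889 across genes, while the other 4 correlated among themselves at 0.980 to 0.988. Across 14130 genes, which are not independent replicates, its deviation from the mean of the others tracked transcript GC content (Spearman rho 0.801). The members' differences below are therefore given with and without this library.

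Because TBX1 is a T-box factor, the promoter windows of the members were searched for the letters such factors bind. The windows run from 250 bases before to 50 after each RefSeq start (GRCm38.p6), and 14 windows covered all 10 genes. The full T-box letters AGGTGTGA were found, on either strand, in 0 of the 14 windows, and in 1.28% of 32851 windows of all genes. The core GGTGTG, which lies within those letters, was found in 1 of the 14, that of Igfbp4, and in 19% of all windows. TATAAA was found in 2 of the 14, Igfbp4 and Igfbp6, and in 13.6% of all windows. A match describes the letters only. Shown are the window with the T-box core and those of Igf1 and Igfbp6, the members whose counts varied most between libraries. Capitals mark GGTGTG and TATAAA, or their reverse complement, and all 3 are written 5′ to 3′ on the strand of the gene.
Igfbp4, chr11:99040994-99041293, plus strand: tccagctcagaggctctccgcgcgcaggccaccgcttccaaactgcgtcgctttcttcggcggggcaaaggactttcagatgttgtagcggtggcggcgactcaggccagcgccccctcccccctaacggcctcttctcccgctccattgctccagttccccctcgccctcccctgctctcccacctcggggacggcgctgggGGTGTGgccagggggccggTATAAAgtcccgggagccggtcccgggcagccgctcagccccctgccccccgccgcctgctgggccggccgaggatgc
Igf1, chr10:87860861-87861160, plus strand: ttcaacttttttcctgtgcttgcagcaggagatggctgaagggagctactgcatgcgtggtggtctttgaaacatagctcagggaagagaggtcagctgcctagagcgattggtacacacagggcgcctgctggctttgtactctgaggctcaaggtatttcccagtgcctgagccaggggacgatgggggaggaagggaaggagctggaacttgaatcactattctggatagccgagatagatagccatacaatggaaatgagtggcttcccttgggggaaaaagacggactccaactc
Igfbp6, chr15:102143936-102144235, plus strand: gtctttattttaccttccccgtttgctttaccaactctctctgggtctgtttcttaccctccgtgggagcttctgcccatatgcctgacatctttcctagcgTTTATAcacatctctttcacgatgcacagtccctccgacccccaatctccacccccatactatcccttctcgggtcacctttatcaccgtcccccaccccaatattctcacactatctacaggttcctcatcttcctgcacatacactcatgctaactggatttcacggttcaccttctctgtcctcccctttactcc
In the Igfbp4 window the core starts 47 bases and TATAAA 28 bases before the start site. In the Igfbp6 window the capitals lie on the opposite strand, 148 bases before the start site. The Igf1 window held neither set of letters.

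None of the 9 members passed the limma threshold between Tbx1cko and control (lowest adjusted p = 0.762), where 0% of the 14339 genes were called. With all 5 libraries, at an unadjusted p under 0.05 the count was 0 of 9 members, against 1.74% of all genes. DESeq2 and edgeR on the recovered reads also called 0 of 9, where DESeq2 called 0.0279% of all genes. Without control replicate 2, limma called 0 of 9 members and 0.0209% of all genes, and DESeq2 called 0 of 9 and 0.544%. In that DESeq2 fit Igfbp6 was given no adjusted p, so it could not be called. The log2 difference was below 0 for 7 members and above 0 for 2, with a median of -0.26, against a median of 0.03 over all genes. Without control replicate 2 it was below 0 for 5 and above 0 for 4, with a median of -0.07, against 0.02 over all genes. The groups did not overlap for 2 members, Igf2 and Igfbp4, both with lower values in Tbx1cko, while 13.9% of all genes were lower and 14.2% higher without overlap. The same 2 did not overlap without control replicate 2, where 17.8% of all genes were lower without overlap.

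**Figure D1:**
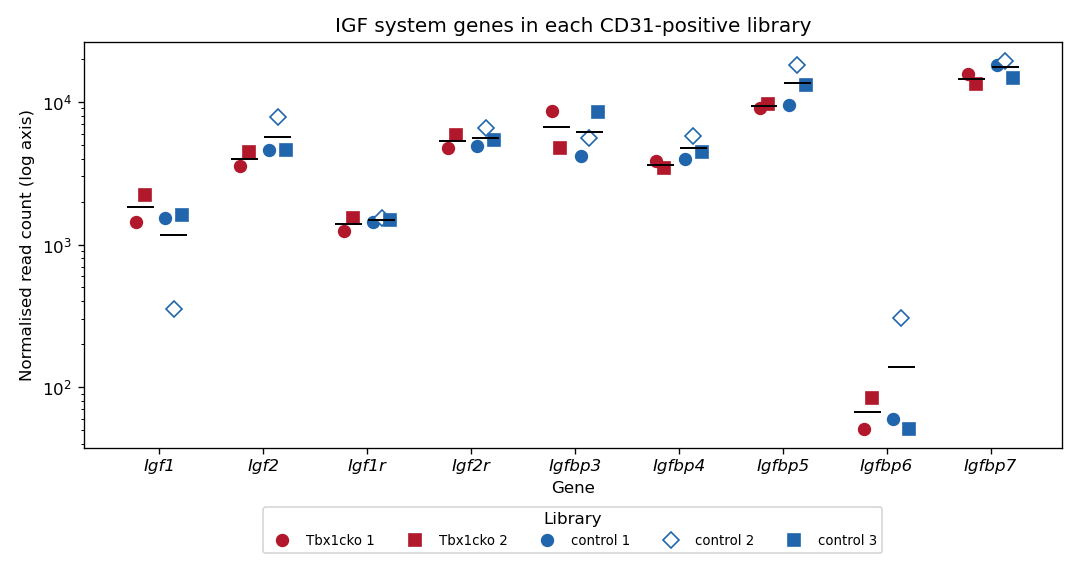
Normalised read counts (log axis) of the 9 measured members in each library, with the 2 Tbx1cko libraries in red left of the 3 control libraries in blue; horizontal bars are group means and the open diamond is control replicate 2. The open diamond is the lowest point for Igf1, at 351, lies among the others for Igfbp3 and is the highest for the other 7 members, while Igf1r varied least, from 1251 to 1543.

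Of the ligands, Igf1 (ENSMUSG00000020053.18, chromosome 10, 87858265 to 87937042 on the plus strand in GRCm38) had 1436 and 2216 normalised reads in Tbx1cko replicates 1 and 2, against 1546, 351 and 1615 in control replicates 1 to 3. Control replicate 2 was 4.85-fold under the mean of the other 4 libraries, and the groups overlapped. The means were 1826 ± 552 in Tbx1cko (SD, n = 2) and 1171 ± 710 in control (SD, n = 3). The log2 difference was 0.90 (SE 0.73, 95% interval -0.94 to 2.74, limma adjusted p = 0.762). Without control replicate 2 it was 0.18 (interval -0.21 to 0.57), and after a correction for GC content with all libraries it was -0.17.

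The longest Igf1 transcript has the lowest GC content of the members, 38.0%, where the median of all tested genes was 49.7%. In control replicate 2 its deviation from the mean of the other libraries was -2.25 on the log2 scale, and the trend over all genes gives -2.93 at its GC content. Igf1 thus lay above that trend. Macrophage markers were also low in that library. All 10 markers of the macrophage and monocyte list were below the mean of the other libraries there, with a median deviation of -0.71 on the log2 scale. Their summed normalised count was 81803 and 85028 in Tbx1cko, against 83164, 49998 and 66440 in control replicates 1 to 3. Mrc1, a mannose receptor of resident-type macrophages, had 6850 and 6020 in Tbx1cko, against 5724, 1143 and 5805 in control replicates 1 to 3. Its deviation in control replicate 2 was -2.41, where its GC content of 43.4% gives -1.30 by the trend. Other macrophage genes deviated less there, with -0.42 for Csf1r, -0.11 for C1qa and -0.03 for Cd68. By the trend, their GC contents give 0.50, 0.78 and 0.40 in the same order, so these genes, like Mrc1, lay below it. The part of these cells in the Igf1 value was not tested, and fewer cells of a type cannot be told apart from less RNA per cell in bulk samples.

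Igf2 (ENSMUSG00000048583.16, chromosome 7, 142650766 to 142666816 on the minus strand), an imprinted fetal growth factor gene, was the more abundant ligand. It had 3551 and 4426 normalised reads in Tbx1cko, against 4600, 7824 and 4577 in control replicates 1 to 3. Both Tbx1cko libraries lay below all controls, the nearer one by a small margin, and control replicate 2 was the highest. The log2 difference was -0.47 (SE 0.30, interval -1.23 to 0.30, limma adjusted p = 0.762), and -0.21 (interval -0.50 to 0.08) without control replicate 2. Over the 21 fits run it was below 0 in 21, from -0.63 to -0.14.

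H19, the imprinted long noncoding RNA that neighbours Igf2 and shares its enhancers, gave the same order of libraries at the extremes. It had 1435 and 1548 normalised reads in Tbx1cko, against 1703, 3767 and 1862 in control replicates 1 to 3, and the groups did not overlap. Its log2 difference was -0.62 (SE 0.39, limma adjusted p = 0.762), and -0.26 without control replicate 2. Per kilobase of exon, the ratio of Igf2 to H19 was 1.06 and 1.23 in Tbx1cko, against 1.16, 0.893 and 1.06 in control replicates 1 to 3. The antisense transcript Igf2os, which overlaps Igf2, had 8.23 and 8.15 normalised reads in Tbx1cko and 15.8, 35.0 and 12.2 in control replicates 1 to 3. Since no source used here states whether counting used strand, reads of Igf2 and Igf2os cannot be told apart, and the same holds for the other overlapping genes named below.

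Per kilobase, the ratio of Igf2 to Igf1 was 4.28 and 3.46 in Tbx1cko, against 5.15, 38.5 and 4.91 in control replicates 1 to 3. The value of control replicate 2 stood far from the rest, and the other 2 controls lay just above both Tbx1cko libraries.

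The receptors were the least variable members. Igf1r (ENSMUSG00000005533.10, chromosome 7, 67952827 to 68233668 on the plus strand), the signalling receptor, had 1251 and 1531 normalised reads in Tbx1cko, against 1427, 1543 and 1481 in control replicates 1 to 3. The Tbx1cko libraries lay on either side of 2 of the controls. Its log2 difference was -0.10 (SE 0.19, interval -0.58 to 0.38, limma adjusted p = 0.833), and -0.07 (interval -0.36 to 0.22) without control replicate 2. Its coefficient of variation over the 5 libraries was 8.19%, against 13.7% for Igf2r, 47.2% for Igf1 and 99.6% for Igfbp6.

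Igf2r (ENSMUSG00000023830.14, chromosome 17, 12682406 to 12769664 on the minus strand), the scavenging receptor, had 4752 and 5884 normalised reads in Tbx1cko, against 4887, 6581 and 5380 in control replicates 1 to 3. The groups overlapped across most of their range. For Igf2r the log2 difference was -0.08 (SE 0.21, interval -0.61 to 0.46, limma adjusted p = 0.886), and 0.04 (interval -0.26 to 0.35) without control replicate 2. Airn, an imprinted antisense RNA that overlaps Igf2r, had 162 and 176 normalised reads in Tbx1cko and 195, 239 and 201 in control replicates 1 to 3. Per kilobase, the ratio of Igf2r to Igf1r was 6.85 and 6.93 in Tbx1cko, against 6.18, 7.69 and 6.55 in control replicates 1 to 3, so the Tbx1cko values lay within the range of the controls.

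**Figure D2:**
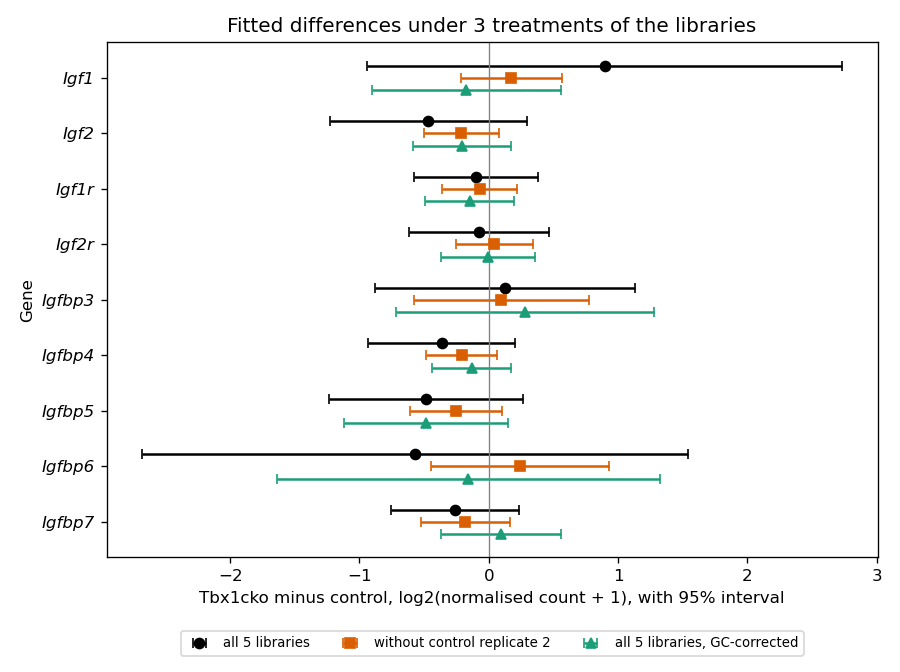
Fitted differences, Tbx1cko minus control, of log2(normalised count + 1) for the 9 members with 95% intervals from limma, for all 5 libraries (black), without control replicate 2 (orange) and with all libraries after GC correction (green). All intervals include 0, and the Igf1 estimate moves between 0.90, 0.18 and -0.17.

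Among the binding proteins, Igfbp7 (ENSMUSG00000036256.13, chromosome 5, 77349240 to 77408041 on the minus strand) had the highest level. It encodes a secreted vascular protein with low affinity for IGFs, which is deposited around blood vessels. It had 15796 and 13337 normalised reads in Tbx1cko, against 18274, 19401 and 14814 in control replicates 1 to 3. The groups overlapped, because Tbx1cko replicate 1 lay above control replicate 3. For Igfbp7 the log2 difference was -0.26 (SE 0.20, interval -0.75 to 0.23, limma adjusted p = 0.762), -0.18 without control replicate 2 and 0.10 after GC correction with all libraries. Polr2b, a gene of RNA polymerase II that overlaps Igfbp7 on the opposite strand, had 1371 and 1386 normalised reads in Tbx1cko, against 1314, 582 and 1345 in control replicates 1 to 3.

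Igfbp5 (ENSMUSG00000026185.8, chromosome 1, 72857932 to 72874884 on the minus strand) encodes a binding protein that also attaches to extracellular matrix. It had 9105 and 9639 normalised reads in Tbx1cko, against 9495, 18110 and 13122 in control replicates 1 to 3. Control replicate 1 lay between the Tbx1cko libraries and the other controls above them. For Igfbp5 the log2 difference was -0.49 (SE 0.30, interval -1.23 to 0.26, limma adjusted p = 0.762), -0.25 (interval -0.61 to 0.10) without control replicate 2 and -0.48 after GC correction. The gene was below 0 in 21 of 21 fits, from -0.72 to -0.25. In control replicate 2 it lay 0.82 above the other libraries on the log2 scale, where its GC content of 50.3% gives 0.05 by the trend over all genes. The endocardial list, 7 markers of the inner lining of the heart, was also at its highest there. Its summed counts were 11680 and 13144 in Tbx1cko, against 15734, 27022 and 15251 in control replicates 1 to 3. The sums of the endothelial, lymphatic endothelial and cardiomyocyte lists were highest in that library as well. The part of endocardial cells in the Igfbp5 value was not tested.

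Igfbp4 (ENSMUSG00000017493.12, chromosome 11, 99041244 to 99054392 on the plus strand), whose protein is cut by the metalloproteinase PAPP-A to release IGF, had 3848 and 3429 normalised reads in Tbx1cko, against 3949, 5788 and 4466 in control replicates 1 to 3. Both Tbx1cko libraries lay below all controls, with control replicate 1 close above them. The log2 difference was -0.36 (SE 0.23, interval -0.93 to 0.20, limma adjusted p = 0.762), -0.21 (interval -0.49 to 0.07) without control replicate 2 and -0.13 after GC correction. It was below 0 in 21 of 21 fits.

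Igfbp3 (ENSMUSG00000020427.11, chromosome 11, 7206086 to 7213923 on the minus strand), the main IGF carrier of the blood, varied within both groups. It had 8605 and 4749 normalised reads in Tbx1cko, against 4203, 5613 and 8513 in control replicates 1 to 3. One library of each group, Tbx1cko replicate 1 and control replicate 3, stood well above the other 3. The means were 6677 ± 2726 in Tbx1cko (SD, n = 2) and 6110 ± 2197 in control (SD, n = 3), and the log2 difference was 0.13 (SE 0.40, interval -0.88 to 1.13, limma adjusted p = 0.898). Leaving out control replicate 2 hardly moved the estimate, at 0.10, and its coefficient of variation over the other 4 libraries was 36.3%, the highest of the 9 members there. Summed fibroblast markers were at 19860 and 40459 in Tbx1cko, against 38436, 21822 and 26256 in control replicates 1 to 3. The part of fibroblasts was not tested.

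Igfbp6 (ENSMUSG00000023046.6, chromosome 15, 102144362 to 102149511 on the plus strand), whose protein prefers IGF2 to IGF1, was the least counted member. It had 51.2 and 83.6 normalised reads in Tbx1cko, against 59.9, 304 and 50.8 in control replicates 1 to 3, which rest on 56 and 82 reads, against 53, 331 and 54. Control replicate 2 was 4.96-fold above the mean of the other 4. The fitted log2 difference of Igfbp6 was -0.57 (SE 0.84, interval -2.69 to 1.54, limma adjusted p = 0.791) and became 0.24 (interval -0.45 to 0.93) without that library. Its transcript has the highest GC content of the members, 60.7%, and the trend over all genes gives a deviation of 0.82 in control replicate 2, where 2.32 was measured on the log2 scale.

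**Figure D3:**
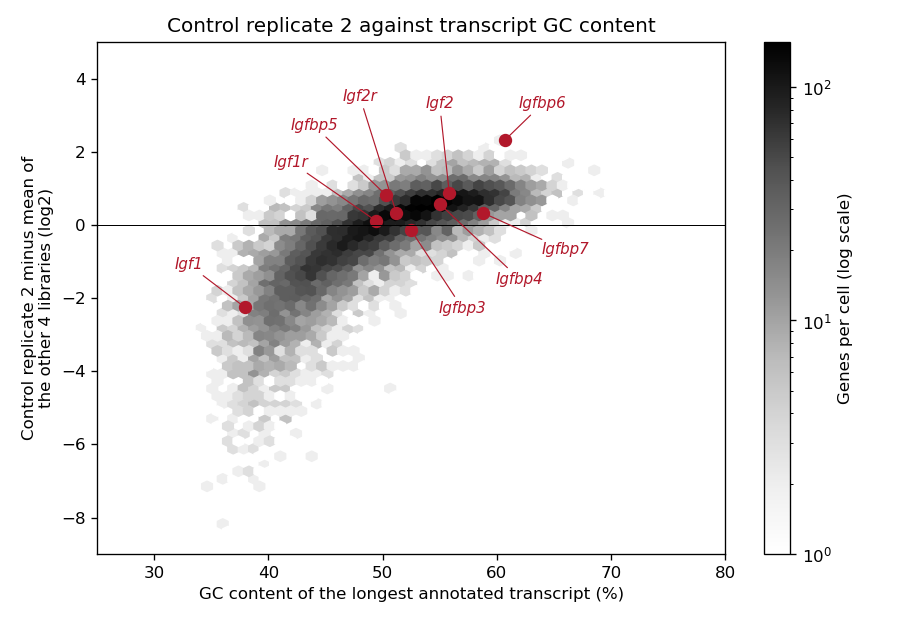
For each tested gene with a GC value (grey cells, shaded by the number of genes on a log scale, with 4 of 14130 genes outside the plotted range), the log2 value of control replicate 2 minus the mean of the other 4 libraries is plotted against the GC content of its longest annotated transcript in percent. Members are red points, with Igf1 at 38.0% and -2.25 and Igfbp6 at 60.7% and 2.32.

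Across the 9 members, the deviation of control replicate 2 ran with transcript GC content at a Spearman rho of 0.63, and the fitted difference between Tbx1cko and control at -0.60. Without control replicate 2 the second rho was 0. These coefficients describe 9 genes measured in the same libraries.

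Levels can be compared between genes only per length, here as normalised reads per kilobase of exon. Igfbp7 led with 12048 ± 1439 in Tbx1cko (SD, n = 2) and 14472 ± 1977 in control (SD, n = 3). Igfbp3, at 2133 ± 871 and 1952 ± 702, and Igfbp5, at 1560 ± 62.9 and 2260 ± 720, overlapped in range and took turns, Igfbp3 being above Igfbp5 in 2 of 5 libraries. Igfbp4 followed with 824 ± 67.0 in Tbx1cko and 1072 ± 215 in control.

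Igf2, at 697 ± 108 per kilobase in Tbx1cko and 990 ± 326 in control, overlapped in range with Igfbp4 above it and with Igf2r below it, which had 571 ± 86.0 and 603 ± 93.6. Igf1 came next with 184 ± 55.7 in Tbx1cko and 118 ± 71.7 in control, and all of its libraries lay below those of Igf2r. Igfbp6 had 60.6 ± 20.6 in Tbx1cko and 124 ± 129 in control, and Igf1r 82.8 ± 11.8 in Tbx1cko and 88.4 ± 3.47 in control. Igf1 was above both in 4 of 5 libraries, among them both Tbx1cko libraries, and below both in control replicate 2, so its range over all libraries overlapped theirs. Igfbp6 was above Igf1r in 1 of 5 libraries. With the longest transcript as the length the order changed only at its end, where Igf1r moved above Igfbp6.

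The 5 measured binding proteins summed to 18248 and 15005 normalised reads per kilobase in Tbx1cko, against 18987, 22440 and 18215 in control replicates 1 to 3. Tbx1cko replicate 1 lay within the range of the controls and replicate 2 below it. With all libraries and no GC correction, the means differed by -3254 (exact permutation test, 2-sided, p = 0.4). The smallest p that 10 splits of these libraries allow is 0.2. The means differed by -1974 without control replicate 2. After GC correction with all libraries they differed by 361, which turns the direction (exact permutation test, 2-sided, p = 0.8). Igfbp7 took 71.6% and 73.5% of the sum in Tbx1cko, against 79.6%, 71.5% and 67.3% in control replicates 1 to 3. Igfbp3 took 15.1% and 10.1%, against 7.07%, 7.99% and 14.9%, and Igfbp5 8.31% and 10.7%, against 8.33%, 13.4% and 12.0%. Igfbp4 held 4.71% to 5.84% over all libraries and Igfbp6 at most 1.22%.

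**Figure D4:**
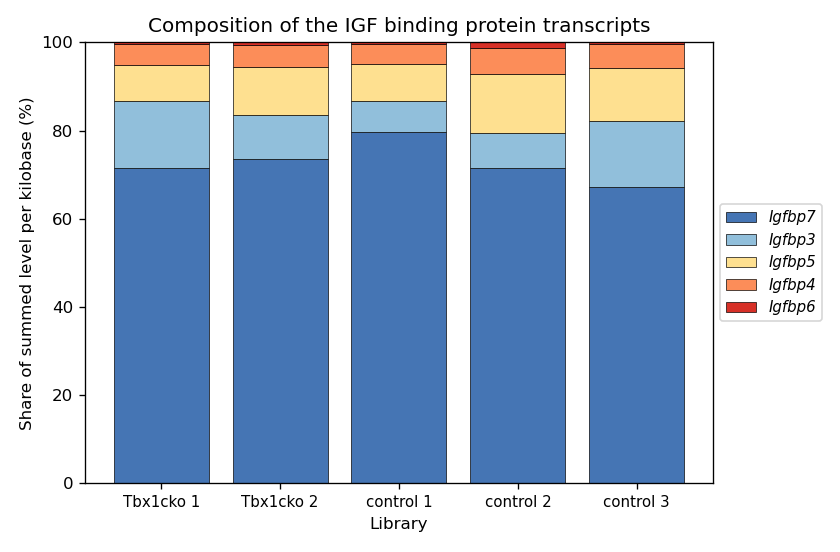
Share of each of the 5 measured binding protein genes in their summed level per kilobase of exon (percent), as stacked bars, 1 per library, with Tbx1cko left of control. Igfbp7 takes 67.3% to 79.6% of every bar, and the Igfbp3 band is widest in Tbx1cko replicate 1 and control replicate 3.

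Other parts of the IGF system were described by lists, and no gene of any of them passed the limma threshold over all genes, with or without control replicate 2. Without it the medians of the lists below were -0.12 for further IGF system genes, -0.12 for proteases, 0.03 for binding partners and -0.38 for CCN genes. After GC correction with all libraries they were -0.24 for further IGF system genes, -0.14 for proteases, -0.09 for receptor signalling, 0.18 for binding partners and -0.09 for CCN genes, so the first changed sign. Of 12 further IGF system genes 5 had a row and 4 were tested, with 3 differences above 0, 1 below and a median of 0.20. Igf2bp2, an mRNA-binding protein that takes its name from Igf2 mRNA, had 99.7 and 94.8 normalised reads in Tbx1cko, against 46.3, 66.2 and 66.8 in control replicates 1 to 3, with no overlap. Its log2 difference was 0.71 (SE 0.30, limma adjusted p = 0.762), and 0.79 without control replicate 2. The insulin receptor gene Insr had 1518 and 1512 in Tbx1cko, against 1532, 1045 and 1867. The growth hormone receptor gene Ghr had 604 and 740, against 663, 304 and 760 in the same order of controls.

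Of 12 binding protein proteases and their inhibitors 11 were tested, 4 above 0 and 7 below, with a median of -0.10. Pappa, which encodes PAPP-A, the protease of IGFBP4, had 32.0 and 17.3 normalised reads in Tbx1cko, against 5.65, 4.6 and 19.8 in control replicates 1 to 3, and the groups overlapped. Adamts1, a secreted metalloproteinase gene, had 20723 and 21941, against 26731, 23028 and 25837, with no overlap and a log2 difference of -0.24 (SE 0.16). The gelatinase gene Mmp2 had 571 and 840 in Tbx1cko, against 830, 1083 and 885, and these overlapped. The serine protease gene Klk8 had 284 and 310, against 330, 680 and 344, with no overlap.

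The list of IGF1 receptor signalling had all 26 members tested, 12 above 0 and 14 below, with a median of -0.07 (-0.03 without control replicate 2). Irs1, which docks PI3 kinase to the receptor, had 9.15 and 18.3 normalised reads in Tbx1cko, against 27.1, 32.2 and 21.6 in control replicates 1 to 3, with no overlap but few reads. Its more abundant relative Irs2 had 872 and 1174, against 1456, 1681 and 1113. The kinase gene Akt2 had 1141 and 1073 in Tbx1cko, against 1524, 1904 and 1106, and the transcription factor gene Foxo4 849 and 920, against 1053, 1569 and 919.

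FoxO transcription factors are held out of the nucleus when the IGF1 receptor signals. Of 15 FoxO target genes, which share Insr and Irs2 with the lists above, all were tested, 12 above 0 and 3 below, with a median of 0.26. Without control replicate 2 the split was 8 above and 7 below, with a median of 0.04, and after GC correction the median was 0.11. Pdk4, a brake on glucose oxidation, had 273 and 432 in Tbx1cko, against 232, 205 and 293 in control replicates 1 to 3. Sesn1, a stress-responsive inhibitor of mTOR signalling, had 429 and 499, against 400, 348 and 378, and the groups did not overlap. Cited2, a transcriptional coregulator, had 712 and 718, against 977, 929 and 763, with no overlap either.

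Of 12 genes for vascular binding partners of the binding proteins all were tested, 7 above 0 and 5 below, with a median of 0.16. Vtn, the matrix protein vitronectin, had 217 and 282 normalised reads in Tbx1cko, against 689, 1231 and 432 in control replicates 1 to 3, and the groups did not overlap. Its log2 difference was -1.53 (SE 0.47, unadjusted p = 0.0201, limma adjusted p = 0.762). Leaving out control replicate 2 gave -1.14 (limma adjusted p = 0.214). DESeq2 without that library called Vtn, at a log2 difference of -1.18 (adjusted p = 0.00247), in a fit that called 0.544% of all genes. This DESeq2 fit called 0 genes of the other 5 lists. Of the genes named from those lists, that fit gave no adjusted p for Igf2bp2, Pappa, Irs1, Wisp1 and Wisp2. Vtn is also a pericyte gene, and the mural cell list, 10 genes with Vtn among them, summed to 38265 and 39959 in Tbx1cko, against 56663, 42148 and 49643 in control replicates 1 to 3. With all 5 libraries the fitted difference was below 0 for 9 of the 10. The sum was lowest among the controls in replicate 2, but 9 of the 10 genes, Vtn included, were above the mean of the other libraries there, with a median deviation of 1.12 on the log2 scale. Rgs5, the exception, deviated by -1.72. The part of mural cells in the Vtn value was not tested.

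Spp1, which encodes osteopontin, a secreted integrin ligand of macrophages and other cells, had 14778 and 16215 normalised reads in Tbx1cko, against 5457, 4637 and 11284 in control replicates 1 to 3, with no overlap. Its log2 difference was 1.23 (SE 0.41, unadjusted p = 0.0264, limma adjusted p = 0.762), 0.98 without control replicate 2 and 0.71 after GC correction. The caveolin gene Cav1 had 48172 and 46861 in Tbx1cko, against 40543, 17809 and 43467, with no overlap. Its log2 difference was 0.59 (SE 0.42), 0.18 without control replicate 2 and 0.0033 after GC correction. The fibronectin gene Fn1 had 23268 and 20545, against 21908, 28707 and 28005. Of 6 CCN genes, a family once grouped with the binding proteins, 5 were tested, 2 above 0 and 3 below, with a median of -0.38. Cyr61, a matricellular target of YAP, had 7805 and 6892, against 9835, 15835 and 9250, with no overlap and a log2 difference of -0.62 (SE 0.28). Nov, a matricellular CCN gene, had 138 and 198, against 193, 338 and 293. Wisp1 had 131 and 137, against 97.2, 30.4 and 141, and Wisp2 55.8 and 96.8, against 111, 88.3 and 91.3.

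The genes most like the member of each role with the largest fitted difference were sought by the root mean square difference of centred log2 values over the 5 libraries, among 11630 genes with a mean of at least 50. Nearest to Igf1 were Abca8b (0.0565), Mid2 (0.0953) and Abcg2 (0.10). Abcg2, a transporter gene, had 1966 and 2490 normalised reads in Tbx1cko, against 1800, 406 and 1928 in control replicates 1 to 3, so it shared the low value of control replicate 2. The transcripts of these 3 genes had GC contents of 42.7%, 42.3% and 39.2%. Nearest to Igf1r were Zbtb43 (0.0224), Invs (0.0277) and Ptch1 (0.0285). Nearest to Igfbp6 were Coro6 (0.319), Sez6 (0.332) and Tcf23 (0.348), which shared the high value of control replicate 2 and were less close.

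The remaining marker lists, for cells that a CD31 gate could hold, were summed in the same way. Endothelial markers summed to 173101 and 163018 normalised reads in Tbx1cko, against 184650, 231506 and 175014 in control replicates 1 to 3. Lymphatic endothelial markers came to 9568 and 8168 in Tbx1cko and 11205 to 14484 in control libraries. Cardiomyocyte markers came to 8399 and 7269 in Tbx1cko and 6014 to 12594 in control libraries. Platelet markers came to 3720 and 3256 in Tbx1cko and 1382 to 2404 in control libraries. Lymphocyte and neutrophil markers came to 1463 and 1366 in Tbx1cko and 862 to 1186 in control libraries. Epicardial markers came to 874 and 982 in Tbx1cko and 844 to 935 in control libraries, nearly all of it Wt1, while 4 of the 6 were listed at 0 in at least 1 library, Upk3b, Msln, Upk1b and Lrrn4. Of the macrophage markers, Ccr2 was listed at 0 in at least 1 library. Fitted differences were below 0 for 7 of the 7 lymphatic endothelial and 7 of the 7 endocardial markers. They were below 0 for 8 and above 0 for 2 of the endothelial markers. For the macrophage list 1 was below and 9 above, and for platelets 1 below and 6 above, where 47.6% of all genes were below 0. These counts are from the fit with all 5 libraries, and they are not given here without control replicate 2. Leaving out that library moved the macrophage genes Adgre1 from 0.43 to -0.064 and Csf1r from 0.067 to -0.087. Mrc1, Lyz2 and Cd68 stayed above 0, at 0.16, 0.25 and 0.41, and C1qa below 0, at -0.078. No marker passed the limma threshold, and the part of these markers in the members' values was not tested.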

How the data were processed

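PolyA RNA of 5 libraries of CD31-positive cells, 2 Tbx1cko and 3 control by their titles, was sequenced. Per the labels' protocols, RNA was extracted with TRIzol LS and a TruSeq kit from Illumina was used for the libraries. The submitters' processing notes name STAR 2.5.2b, DESeq, R 3.5.1, DESeq2 1.20.0 and the builds GRCm38 and mm10. Read counter, annotation and strand setting: not given in the sources used here. Per gene, the authors deposited a normalised signal. Each of them (100%) is, within 0.01, a whole multiple of its library's smallest value above 0, as reads scaled by 1 factor per library would be, so whole reads were recovered.

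The members and the gene lists were chosen with earlier results of these data known. The main test was limma 3.58.1 (R 4.3.3) with a trended prior and genotype as its one term, on log2 values with a pseudocount of 1, which understates changes of low genes. Benjamini-Hochberg adjustment ran over the 14339 genes with a mean of at least 10, at a threshold of 0.05. On the recovered reads edgeR 4.0.16 called 0 genes and DESeq2 1.42.0 called 4. Positions, lengths and the GC content of the longest transcript came from GENCODE M21 (GRCm38) for 17181 symbols, 440 of them older ones. For GC correction, a loess against GC percent (span 0.3), fitted to each library over 14130 genes, was subtracted. Every pair of libraries differed by more than sampling noise (chi-square per degree of freedom 13.1 or more). Alternatives were pseudocounts of 0.5 and 5, a mean of at least 50 or none, TMM or quantile scaling, an untrended prior, a replicate block, a threshold of 0.1, another gene length, and each library left out. All measured members were named. Up to 4 tested genes of each other list with the smallest unadjusted p were named, and the 3 genes most like 1 member of each role. H19 beside Igf2, Igf2os, Airn, Polr2b, the single marker genes and the genes most like Igfbp3 were chosen after their values were seen.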

Additional observations from a re-analysis of the deposited data

How the results depend on the processing

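No member was called under any of the 21 alternatives, where each adjusted p given was 0.410 (Igf1, replicate block) or higher. DESeq2 gave none for Igfbp6 without control replicate 2. Of all genes 0 were called, but 3 with the replicate block, 3 without control replicate 2, 4 with DESeq2, 1 with edgeR without control replicate 2 and 78 with DESeq2 without it. Leaving out each library in turn gave 0 to 3. Deviations of same-numbered libraries from their group means correlated at -0.0556 and -0.0461 across genes. The deviations of 2 Tbx1cko libraries mirror each other, so these values cannot settle whether the numbers pair libraries. Before adjustment, limma put 1 member under the threshold with the replicate block, Igf1 at 1.27 (adjusted p = 0.410), as for 1606 of all genes. Only the controls have a replicate 3, so the block takes that library out of the comparison. With control replicate 3 left out, Igf1 was likewise at 1.27. Before adjustment, limma also put 1 member under the threshold without control replicate 1, Igfbp5 at -0.72 (adjusted p = 0.760), as for 108 of all genes. Of the members' log2 differences under alternatives, 18 changed sign. After GC correction Igf1 was at -0.17 and Igfbp7 at 0.10. With the replicate block and GC correction together Igf1 was at -0.33, Igf2r at 0.0085 and Igfbp7 at 0.13. Igf2r was at 0.018 with quantile normalisation. With single libraries left out, Igf1r lay between -0.25 and 0.046, Igf2r between -0.23 and 0.078, Igfbp3 between -0.30 and 0.56, and Igfbp6 between -1.04 and 0.24. Igfbp3 was at -0.30 without Tbx1cko replicate 1 and at -0.11 without control replicate 1. Without control replicate 2, Igf2r was at 0.044, 0.038 with edgeR, 0.039 with DESeq2 and 0.057 with GC correction, and Igfbp6 at 0.24, 0.27 with edgeR or DESeq2 and 0.41 with GC correction. The summed binding protein level differed by -3254 per kilobase, by 361 after GC correction (exact permutation p = 0.8), and by -4876 to -1633 with single libraries left out. The cause of these changes was not tested. Leaving out a Tbx1cko library leaves 1, assumed to vary like the controls. The Igf1 and Igfbp6 intervals were the widest of the members, and Igfbp6 rests on 53 to 331 reads per library.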

Other observations

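Igfbp3 had 1 library well above the rest of its group in both groups. The genes with the most similar pattern over the 5 libraries, sought after its values were seen, were Traip, Marco and Plk1, at root mean square differences of 0.13, 0.14 and 0.16 on the log2 scale. Plk1, a kinase of cell division, had 259 and 180 normalised reads in Tbx1cko replicates 1 and 2, against 137, 166 and 237 in control replicates 1 to 3. Traip, a ubiquitin ligase gene of DNA replication, had 88.7 and 44.8 in Tbx1cko, against 40.7, 44.2 and 73.4. Marco, a scavenger receptor gene of macrophages, had 87.8 and 48.9 in Tbx1cko, against 48.6, 52.4 and 74.3. These genes were picked for this pattern, so the libraries in which they are high are a description only.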
